A study of Mus musculus with 6 samples.

Results

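Serpins are a superfamily of proteins that share one fold. Most trap a protease by offering it an exposed loop as bait and then changing shape around it, while a few members carry hormones or act as chaperones. They are sorted into lettered clades by sequence. Clade A holds secreted plasma proteins such as the alpha-1-antitrypsins, clade B holds mostly intracellular inhibitors, and clades C, D, F and G hold antithrombin, heparin cofactor II, the pair of pigment epithelium-derived factor and alpha-2-antiplasmin, and the C1 inhibitor. In the early embryo, plasma-type serpins are made by yolk sac endoderm, which secretes much of what the liver secretes later.

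The serpin family was examined in 6 arrays of mouse embryoid bodies, aggregates in which embryonic stem cells differentiate. Members were all probe sets whose annotated symbol begins with Serpin, which gave 59 of the 45101 probe sets on the array. They name 46 of 19324 genes, from clades A, B, C, D, F, G, H and I. Of the 59 probe sets 56 carry 1 symbol, and 3 are shared by close relatives, so that 40 genes have a probe set of their own and 6 are named only through a shared one.

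All bodies came from the D3 embryonic stem cell line, grew without leukaemia inhibitory factor under rotation, held gelatin-treated microspheres and were sampled at 10 days. In the 3 control samples the microspheres carried the dye CellTracker Red, and in the 3 other samples they carried retinoic acid (RA), a signalling molecule made from vitamin A whose receptors are transcription factors. Neither group was free of microspheres, and the labels describe a range of microsphere amounts and rotation speeds without saying which were used for the arrays. The labels speak of triplicates without calling them separate cultures, so the spread behind the p-values is that of these arrays and may be technical.

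Values are normalized log2(intensity + 16), called log2 levels here. A fold change is RA minus control on this scale, its standard error (SE) comes from the limma fit, and it understates the change of dim genes. Adjusted p-values are Benjamini-Hochberg values from limma over all 13608 genes tested, with a threshold of 0.05. A probe set was kept if its mean over the 6 arrays exceeded a filter level of 5.74, the 40th percentile. This held for 30 serpin probe sets, and 24 serpin genes could be tested. Median deposited signals were between 41.4 and 65.5, log2 levels correlated at 0.959 to 0.971 within groups, and the 3-prime to 5-prime ratio of Gapdh was 34.0 on RA array 1 against 3.06 to 4.74 on the others. That of actin was 3.35 to 4.24 on the control arrays and 4.35 to 7.42 on the RA arrays, so it was higher on every RA array, and the part of RNA quality in the results was not tested. A body holds many cell types, and fewer cells of a type cannot be told apart from less RNA per cell.

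Genes of the alpha-1-antitrypsins, of a hormone carrier and of clotting inhibitors were among the serpins that fell with RA, and 2 clade B genes rose. Of the 24 serpin genes tested, 9 fell and 2 rose, while 15.6% of all genes tested fell and 14.3% rose. A change of at least 2-fold was seen in 7 of the falls and in both rises. The falls were Serpina1b, Serpina6, Serpinf2, Serpind1, Serpinf1, Serpina10, Serpina1c, Serpinh1 and Serpinc1, and the rises were Serpinb9g and Serpinb6c. All RA arrays lay below all control arrays for 11 serpin genes and above them for 2, against 22.2% and 21.8% of all genes. The median fold change was -0.08 over the serpin genes tested and 0.01 over all genes, since 13 of the 24 did not pass and lay between -0.58 and 0.36. Serpina1b, Serpina1c and Serpina6 passed the filter through their control arrays, and Serpinb9g and Serpinb6c through their RA arrays, so these 5 could only pass the filter by differing. Without the filter all 40 genes with a probe set of their own were tested, of which 8 fell and 2 rose, against 11.1% and 10% of all genes.

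**Figure D1:**
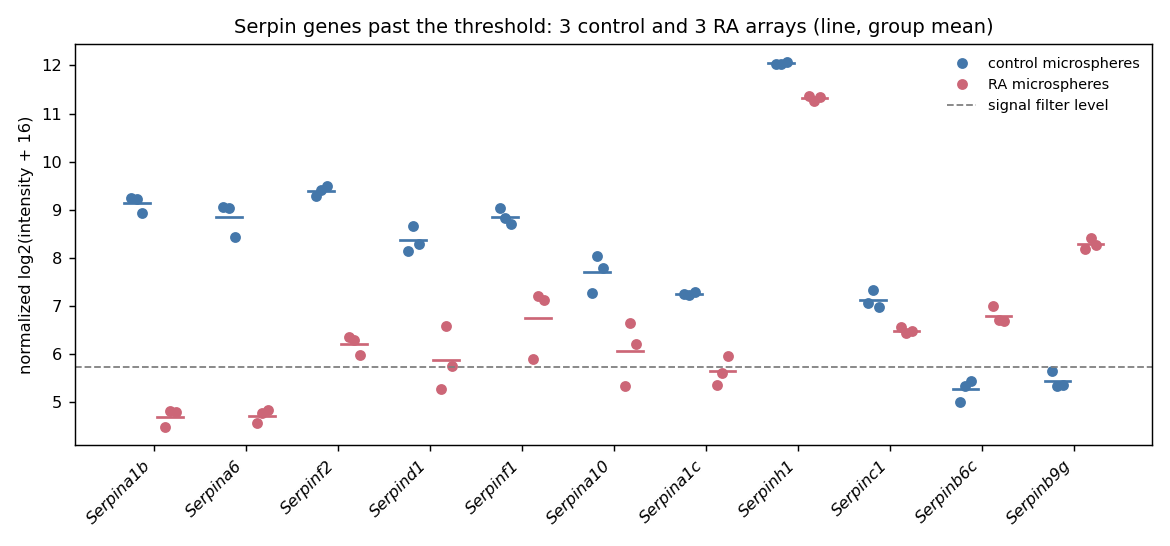
Log2 level, log2(intensity + 16) after quantile normalization, of the 11 serpin genes past the threshold on 3 control arrays (blue) and 3 RA arrays (red), with group means as lines and the filter level of 5.74 dashed. Serpina1b and Serpina6 lie below the filter level on every RA array, and Serpinb9g and Serpinb6c lie below it on every control array; levels of different genes are not comparable.

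The alpha-1-antitrypsins, which protect tissue from neutrophil elastase, come from a row of near-identical Serpina1 genes in the mouse. Serpina1b had log2 levels of 9.24, 9.22 and 8.94 on control arrays 1, 2 and 3 and of 4.49, 4.81 and 4.79 on the RA arrays. All RA arrays lay below the filter level, and their deposited intensities were 7.19, 13.3 and 13.2 against 636, 600.1 and 310 in the controls. Its fold change was -4.44 ± 0.20 (SE, n = 3 and 3, limma adjusted p = 3.67e-08). Since the RA mean is open to background the size is uncertain, with fold changes of -5.68 at a pseudocount of 1 and -3.04 at 64. The other probe set named for Serpina1b fell by 4.30 on the log2 scale, from 8.99 ± 0.14 to 4.69 ± 0.22 (SD, n = 3).

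The remaining Serpina1 probe sets went the same way where they could be read. The probe set shared by Serpina1a and Serpina1d fell from 8.87 ± 0.30 to 4.65 ± 0.19 (SD, n = 3), with a fold change of -4.22 ± 0.23 (SE, limma adjusted p = 4.36e-07 over the 27022 kept probe sets). Serpina1c had log2 levels of 7.24, 7.24 and 7.30 in the controls and 5.36, 5.62 and 5.96 with RA. It fell by 1.61 on the log2 scale (SE 0.24, limma adjusted p = 0.000419), the groups did not overlap, and its RA mean was below the filter level too. The probe set shared by Serpina1b, Serpina1c and Serpina1e lay below the filter, at 5.10 ± 0.34 in controls and 4.34 ± 0.16 with RA. Serpina1f was also below it, at 4.42 ± 0.07 and 4.59 ± 0.38. Since these probe sets may read several of the paralogs, which Serpina1 genes were transcribed is not resolved by the array.

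The Serpina1 promoters are shown because the 3 kept probe sets of Serpina1a, Serpina1b and Serpina1d and that of Serpina1c all fell. In RefSeq (GRCm38.p6), the 250 bases before the start of Serpina1a, Serpina1b, Serpina1c, Serpina1d and Serpina1e were 91.6% to 97.0% identical between pairs, over 190 to 250 alignment columns. Below are 60 bases of each, 5′ to 3′ on the minus strand, placed around TGTTTGC. Capitals mark TGTTTGC, a core of sites for FOXA factors.
Serpina1a: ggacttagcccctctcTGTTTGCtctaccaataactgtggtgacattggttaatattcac
Serpina1b: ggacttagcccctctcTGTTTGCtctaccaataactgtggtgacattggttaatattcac
Serpina1c: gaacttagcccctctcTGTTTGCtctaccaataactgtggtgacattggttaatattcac
Serpina1d: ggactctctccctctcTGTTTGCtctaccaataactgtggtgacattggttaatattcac
Serpina1e: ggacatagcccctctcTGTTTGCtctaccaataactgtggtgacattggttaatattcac
They lie at chr12:103863629-103863688, chr12:103738204-103738263, chr12:103904966-103905025, chr12:103773638-103773697 and chr12:103956964-103957023 in that order. Searched on both strands, TGTTTGC was in 5.07% of the 32851 promoters of 300 bases in the table and in 7 of the 46 serpin promoters, which belong to 40 of the 46 genes. The 5 paralogs account for 5 of these matches. A match describes letters only.

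The other changed clade A genes were a hormone carrier and a coagulation inhibitor. Serpina6 encodes corticosteroid-binding globulin, which carries glucocorticoids in blood and inhibits no protease. It had log2 levels of 9.06, 9.05 and 8.43 on the control arrays and 4.57, 4.77 and 4.83 on the RA arrays, all below the filter level. It fell by 4.12 on the log2 scale (SE 0.23, limma adjusted p = 2.16e-07). The RA mean is open to background and the size is uncertain, with fold changes of -5.30 at a pseudocount of 1 and -2.77 at 64. Serpina10 encodes the protein Z-dependent inhibitor of coagulation factor X. The control arrays were at log2 levels of 7.27, 8.04 and 7.79 and the RA arrays at 5.35, 6.65 and 6.20, with RA array 1 the lowest. It fell by 1.63 on the log2 scale (SE 0.32, limma adjusted p = 0.00259), and the fold change without RA array 1 was -1.29.

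Within the chromosome 12 row, the tested genes that fell lie at one end. In RefSeq order the serpins of chromosome 12 start with Serpina10 and Serpina6, followed by the Serpina1 genes. All 4 clade A genes that fell are among the first 8 of 28. Only 7 clade A genes were tested, however, and most later positions had no value, many of them because no probe set names the gene. Where the falls end along the row is therefore not resolved. Farther along the row, Serpina4-ps1, a transcribed pseudogene, Serpina3a and Serpina3i had fold changes of 0.10 ± 0.38, -0.13 ± 0.27 and 0.12 ± 0.32 (SE), and none passed the limma threshold. Their 95% intervals ran from -0.74 to 0.94, from -0.73 to 0.46 and from -0.59 to 0.82. Serpina11, Serpina9, Serpina12, Serpina5 and Serpina3n were left out by the filter, with group means between 4.56 and 5.79. Serpina7 (thyroxine-binding globulin), on the X chromosome, was below it too, at 5.19 ± 0.62 and 4.47 ± 0.12. Chromosome 12 as a whole had 13.2% of 477 genes lower and 15.9% higher.

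**Figure D2:**
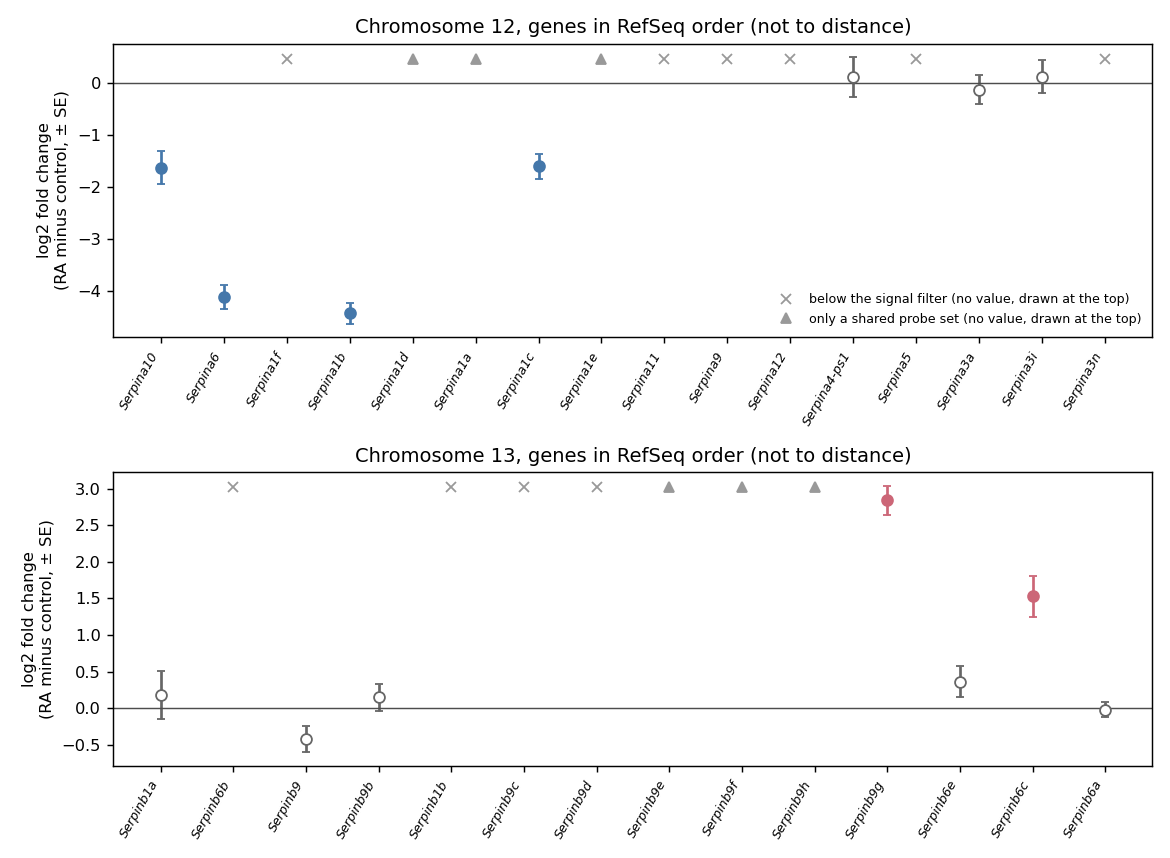
Log2 fold change (RA minus control, ± SE) of the array's serpin genes on chromosomes 12 and 13 against their RefSeq order, not to distance; filled points passed the threshold and grey marks at the top have no value of their own. The falls on chromosome 12 are at the Serpina10 end, and the rises on chromosome 13, Serpinb9g and Serpinb6c, are separated by Serpinb6e.

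Clades C, D, F and G hold further plasma serpins of clotting, fibrinolysis and complement. Serpinf2, alpha-2-antiplasmin, is the main plasma inhibitor of plasmin. Log2 levels were 9.29, 9.41 and 9.49 in the controls and 6.35, 6.29 and 5.98 with RA, with no overlap and all RA arrays above the filter level. It fell by 3.19 on the log2 scale (SE 0.15, limma adjusted p = 5.68e-08), which is 9.13 times. Serpind1, heparin cofactor II, inhibits thrombin. Its arrays read 8.13, 8.66 and 8.30 in the controls and 5.28, 6.58 and 5.75 with RA, so the RA arrays spread widely with array 1 lowest. It fell by 2.49 on the log2 scale (SE 0.30, limma adjusted p = 7.64e-05), and the fold change without RA array 1 was -2.21. Serpinc1, antithrombin, the inhibitor that heparin activates, changed less. Controls stood at 7.07, 7.34 and 6.99 and RA arrays at 6.57, 6.43 and 6.47, and it fell by 0.64 (SE 0.20, limma adjusted p = 0.0317). This call was lost in 7 of 16 alternatives, among them without scaling (-0.43), without any filter (-0.64), and on leaving out 1 array, which was control 1, control 2, RA 2 or RA 3 (-0.66 to -0.54). The limma adjusted p ran from 0.0146 to 0.342 over all 16.

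The clade G gene Serping1 encodes the C1 inhibitor, which restrains complement and the contact system. Its log2 levels were 7.50, 7.23 and 7.08 in the controls and 6.53, 6.63 and 6.92 with RA, without overlap. Its fold change of -0.58 ± 0.20 (SE, 95% interval -1.02 to -0.13) did not pass (limma adjusted p = 0.0531). It passed in 5 of 16 alternatives, with adjusted p from 0.0281 to 0.386 over all of them, so it lies at the threshold.

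Serpinf1 encodes pigment epithelium-derived factor, a secreted serpin that restrains vessel growth and inhibits no protease. Its brighter probe set had log2 levels of 9.04, 8.82 and 8.71 in the controls and 5.90, 7.21 and 7.12 with RA. It fell by 2.11 on the log2 scale (SE 0.29, limma adjusted p = 0.000221), and the fold change was -1.69 without RA array 1, the lowest. The other probe set fell by 1.22 (SE 0.31, limma adjusted p = 0.0165 over probe sets), from 6.94 ± 0.50 to 5.72 ± 0.38 (SD, n = 3). Serpinf1 and Serpinf2 are neighbours on chromosome 11. Among the other 1114 genes tested from that chromosome, 28.5% fell and 6.46% rose, with a median fold change of -0.20. The part of this shift in the falls of both genes was not tested.

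Serpinh1, the clade H gene, encodes HSP47, the chaperone of the endoplasmic reticulum that collagen needs to fold. Its brightest probe set had log2 levels of 12.04, 12.04 and 12.07 in the controls and 11.36, 11.26 and 11.34 with RA. It fell by 0.73 on the log2 scale (SE 0.07, limma adjusted p = 1.03e-05), 1.66 times, with little spread in either group. Its other probe set fell by 0.90 (SE 0.13, limma adjusted p = 0.000696 over probe sets). Without scaling between arrays the change was -0.33 and did not pass (limma adjusted p = 0.412), and there the median over all genes was 0.26 in place of 0.01. Among 27 tested collagens and collagen-modifying enzymes 16 fell (59.3%, against 15.6% of all genes), with a median fold change of -0.65 over the 27. Rises numbered 4 (14.8%), near the 14.3% of all genes. Without scaling 8 genes of this list fell. Col3a1 and Col1a2, fibrillar collagen chains, fell with fold changes of -2.38 ± 0.07 and -2.13 ± 0.12 (SE), and Pcolce, an enhancer of procollagen processing, with -2.47 ± 0.11. P4ha1, a prolyl hydroxylase subunit, rose by 1.05 ± 0.13, and the other rises were Col4a1, Col4a2 and Col2a1, named after their values were seen because they complete that count. Each of these 7 genes had a limma adjusted p of 0.00210 or less.

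**Figure D3:**
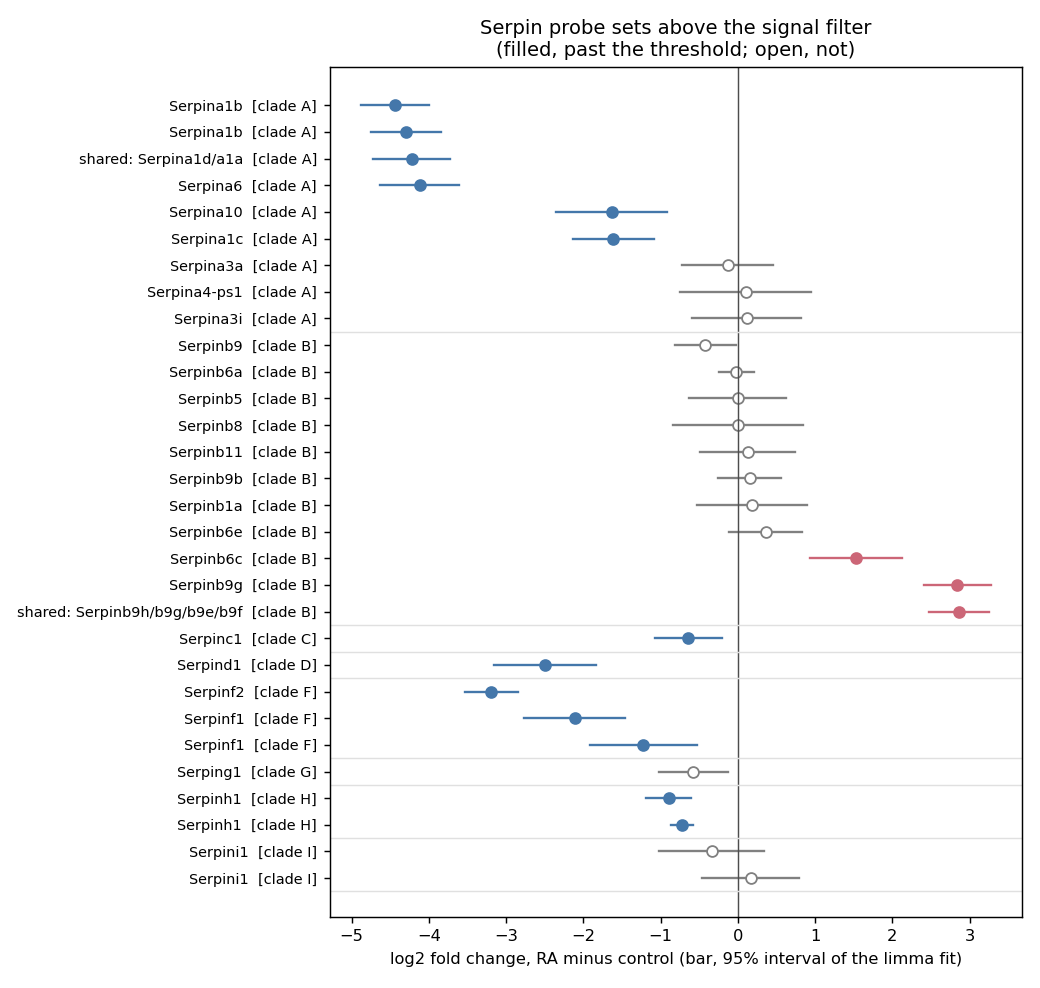
Log2 fold change (RA minus control, bars are 95% intervals of the limma fit) of the 30 serpin probe sets above the filter, grouped by clade, filled where past the threshold. In clade B 3 probe sets are to the right of 0 and filled, and the filled probe sets of all other clades are to the left; the pairs for Serpina1b, Serpinf1 and Serpinh1 fall together.

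The probe sets of single genes can be compared with each other. Of the 30 kept serpin probe sets 13 fell and 3 rose, against 11.1% and 11.3% of all 27022. Both kept probe sets of Serpina1b, of Serpinf1 and of Serpinh1 fell, while those of Serpini1 did not pass and differed in sign. Serpini1 is neuroserpin, an inhibitor of tissue plasminogen activator in the nervous system. The probe set that stands for it had log2 levels of 6.29, 5.72 and 5.88 in controls and 5.92, 6.41 and 6.06 with RA (fold change 0.17 ± 0.29, SE, limma adjusted p = 0.718). The other gave -0.34 ± 0.31 (SE), and in both the groups overlapped. Serpini2 was below the filter.

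Clade B serpins guard the cytoplasm against stray proteases, and 8 of their 10 tested genes did not pass. The 2 that rose are 20% of the 10, against 14.3% of all genes, and 0 fell, against 15.6%. Serpinb9g belongs to a run of close relatives of Serpinb9, the inhibitor of granzyme B. Log2 levels were 5.66, 5.34 and 5.35 on the control arrays, all below the filter level, and 8.18, 8.41 and 8.27 on the RA arrays. It rose by 2.84 ± 0.20 (SE, limma adjusted p = 1.22e-06). The size is open to background in the controls, with fold changes of 3.39 at a pseudocount of 1 and 1.98 at 64. Its deposited intensities were 32.7, 27.5 and 17.9 in the controls and 277, 375 and 327 with RA. A probe set shared by Serpinb9e, Serpinb9f, Serpinb9g and Serpinb9h rose by 2.86 ± 0.18 (SE, limma adjusted p = 1.24e-06 over probe sets), from 5.60 ± 0.05 to 8.46 ± 0.11 (SD, n = 3). The 2 probe sets may read the same transcripts, so the rise cannot be given to Serpinb9g alone.

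Promoters of this run are shown because the shared probe set that rose names Serpinb9e, Serpinb9f, Serpinb9g and Serpinb9h together. Below are 80 bases of Serpinb9e, Serpinb9f and Serpinb9g, 5′ to 3′ on the plus strand, from the 250 bases before the start in RefSeq (GRCm38.p6). The stretches were placed around TGACCT, so its presence in them follows from that choice, and Serpinb9h is not shown. Capitals mark TGACCT, the reverse complement of AGGTCA, a core to which nuclear receptors, the retinoic acid receptors among them, can bind.
Serpinb9e: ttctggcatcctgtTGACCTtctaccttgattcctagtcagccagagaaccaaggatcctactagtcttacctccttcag
Serpinb9f: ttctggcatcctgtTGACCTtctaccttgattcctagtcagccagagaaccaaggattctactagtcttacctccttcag
Serpinb9g: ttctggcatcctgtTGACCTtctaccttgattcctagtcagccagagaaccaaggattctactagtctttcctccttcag
They lie at chr13:33249376-33249455, chr13:33323830-33323909 and chr13:33484554-33484633. Within the 250 bases the 3 were 95.4% to 99.2% identical between pairs, over 235 to 246 alignment columns. Serpinb9h, which lies between Serpinb9f and Serpinb9g in gene order, was 53.4% to 54.2% identical to them, over 177 to 208 columns. Unaligned ends were not counted. AGGTCA, searched on both strands, was in 16.3% of all promoters and in 14 of 46 serpin promoters. Of tested genes with a promoter, it was found for 1 of 2 higher genes, Serpinb9g, and for 3 of 7 lower genes, Serpind1, Serpinf1 and Serpinf2. Among those that did not pass it was found for 1 of 10, Serpinb6e. Promoters of Serpinb9e, Serpinb9f and Serpinb9h, and of Serpinb9c and Serpinb9d below the filter, held AGGTCA too. Relatives of Serpinb9 thus account for part of the matches, which are not independent of each other. A direct repeat of AGGTCA with 5 or with 2 bases between, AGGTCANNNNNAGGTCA or AGGTCANNAGGTCA on either strand, was in none of the 46 serpin promoters and in 3 of 32851 in each case. These counts describe letters in a 300-base window and say nothing of binding.

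Serpinb6c, a relative of the cathepsin G inhibitor Serpinb6a, was the other rise. Log2 levels were 5.01, 5.34 and 5.44 in the controls, below the filter level, and 6.996, 6.71 and 6.68 with RA. It rose by 1.53 ± 0.28 (SE, limma adjusted p = 0.00155). This size too is open to background, at 2.05 with a pseudocount of 1 and 0.88, under 2-fold, at 64, and the probe set is of a kind that can read related transcripts. Serpinb6a itself had log2 levels of 9.29 ± 0.05 and 9.27 ± 0.13 (SD, n = 3), and the 95% interval of its fold change ran from -0.24 to 0.20. Serpinb6e was at 0.36 ± 0.21 (SE), and Serpinb6b lay below the filter at 6.05 ± 0.30 and 5.17 ± 0.76.

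Serpinb9, the granzyme B inhibitor, did not pass. Its log2 levels were 7.48, 7.37 and 7.32 in the controls and 7.17, 6.92 and 6.81 with RA, without overlap. The fold change of -0.42 ± 0.18 (SE, 95% interval -0.81 to -0.03) had a limma adjusted p of 0.102. Serpinb9b was at 0.15 ± 0.18 (SE), and Serpinb9c and Serpinb9d were below the filter. Chromosome 13, where the Serpinb9, Serpinb6 and Serpinb1 genes lie, had 16.7% of 514 genes higher and 13.6% lower.

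The remaining clade B genes tested did not pass either. Serpinb1a, an inhibitor of neutrophil proteases, was at 0.18 ± 0.33 (SE), Serpinb5 (maspin, of epithelia) at -0.0034 ± 0.29, Serpinb8 at -0.00041 ± 0.38 and Serpinb11 at 0.13 ± 0.28. The 95% interval for Serpinb8 reached from -0.84 to 0.84, so its change was poorly bounded. Its other probe set, left out by the filter, was at 5.84 ± 0.26 in controls and 4.85 ± 0.07 with RA, without overlap. Serpinb2, Serpinb3a, Serpinb7, Serpinb12 and Serpinb1b had group means between 4.31 and 5.24, below the filter level.

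Of the 29 serpin probe sets below the filter, 4 had RA arrays all lower than the controls and 4 all higher. Without the filter, 2 of them passed in limma as lower, the probe set shared by Serpina1b, Serpina1c and Serpina1e and the dimmer probe set of Serpinb8, and 0 passed as higher. Their means over the 6 arrays ran from 4.06 to 5.64, where log2(intensity + 16) has a floor of 4. The same counts over all probe sets below the filter were not made. The counts of the 29 therefore have no share beside them and are not read as a result about the members.

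Partners of the serpins are set here beside all genes tested, of which 14.3% rose and 15.6% fell. Of 36 listed proteases that serpins inhibit 18 were tested, and Plg, Plau, Elane, Prtn3 and Gzmb were among those not tested. Of the 18 tested, 5 rose (27.8%) and 3 fell (16.7%), with a median fold change of 0.00. The membrane proteases Tmprss2 and Prss8 rose by 1.04 ± 0.10 and 1.27 ± 0.19 (SE), the secreted protease Htra1 rose by 1.10 ± 0.21, and the fold change of the lysosomal cathepsin Ctsb, which fell, was -0.69 ± 0.11. Without scaling 0 fell, and with the mean of the probe sets of a gene 1 fell. Of 18 tested cofactors and receptors 3 rose (16.7%) and 2 fell (11.1%), shares near those of all genes. F2r, the thrombin receptor, and Vtn (vitronectin) fell, with fold changes of -1.67 ± 0.11 and -1.91 ± 0.17 (SE). Lrp2, an endocytic receptor, rose by 1.91 ± 0.21 and Hs3st1, which modifies heparan sulfate to bind antithrombin, by 1.27 ± 0.22. Each of these 8 genes had a limma adjusted p of 0.00213 or less.

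Protease inhibitors outside the family also went both ways. Of 24 tested, 11 fell (45.8%) and 6 rose (25.0%), and without scaling 6 fell. The plasma proteins Ambp, Itih2 and Kng1 fell, with fold changes of -3.44 ± 0.19, -3.32 ± 0.34 and -3.05 ± 0.31 (SE), and Spink1, a trypsin inhibitor known in visceral endoderm, rose by 1.15 ± 0.08 (limma adjusted p at most 2.60e-05). The RA means of Itih2 and Kng1, 4.88 and 4.98, lay below the filter level, as did the control mean of Timp4, 5.24, which is among the rises.

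Marker lists of endoderm and mesenchyme went in different directions, while 14.3% of all genes tested rose and 15.6% fell. Of 16 tested genes of serum-secreting endoderm 12 fell and 3 rose, and the summed intensity of the list was 35026 to 37371 on control arrays and 8401 to 9773 on RA arrays. Rbp4, the plasma carrier of retinol, and Fgb, a fibrinogen chain, fell with fold changes of -3.40 ± 0.08 and -5.12 ± 0.15 (SE). The RA arrays of Fgb were all below the filter level, so its size is open to background. The 3 that rose, named after their values were seen, were Apob, Apoa4 and Foxa1. The list labelled visceral endoderm uptake held Cubn, Amn, Lrp2, Dab2, Cer1, Hhex, Rhox5, Cited1, Foxa2 and Sox17, not all of them uptake genes. All 10 rose, with sums of 1713 to 1791 in controls and 7911 to 8457 with RA. The marker and partner lists were chosen with earlier results of these data known, so their shares are not independent support. Of 14 mesenchyme genes 12 fell and 1 rose, with sums of 22529 to 26053 and 4384 to 4702. This list shares Col1a1, Col1a2 and Col3a1 with the collagen list set beside Serpinh1. In the serum, visceral endoderm and mesenchyme lists the RA means of Fga, Fgg and Tagln also lay below the filter level. So did the control means of Apoa4, Amn, Cer1 and Thy1, and all of these genes passed the filter through their other group. Of 16 parietal endoderm genes 9 rose and 4 fell, while the sum of the list was lower with RA, at 18200 to 18639 against 21468 to 23097. That sum leans on Vim and Sparc, the brightest of the list in the controls. Vim fell from a mean log2 level of 12.88 to 11.20 and Sparc from 12.53 to 11.90, so the sum does not speak for the list as a whole.

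The other lists hold fewer tested genes, and 14.3% of all genes rose and 15.6% fell. Of 7 tested trophoblast genes 3 rose and 1 fell, with sums of 1171 to 1422 in controls and 1762 to 1978 with RA, and 7 of 14 listed, among them Elf5, Gcm1 and Prl3d1, were not tested. Of 6 platelet genes 3 fell, of 9 macrophage and granulocyte genes 5 fell, and of 8 endothelial genes 6 fell, and 0 rose in each. Among these falls the RA means of Ppbp, C1qb, Cd68, Ptprc, Cldn5, Fli1 and Tek lay below the filter level. Those genes passed the filter through their control arrays. Of 11 neural genes 3 rose (27.3%) and 1 fell (9.09%), and of 7 surface epithelium genes 2 fell (28.6%). The control mean of Sox1, among the neural rises, was below the filter level, at 4.87. The part of these cell types in the serpin changes was not tested.

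**Figure D4:**
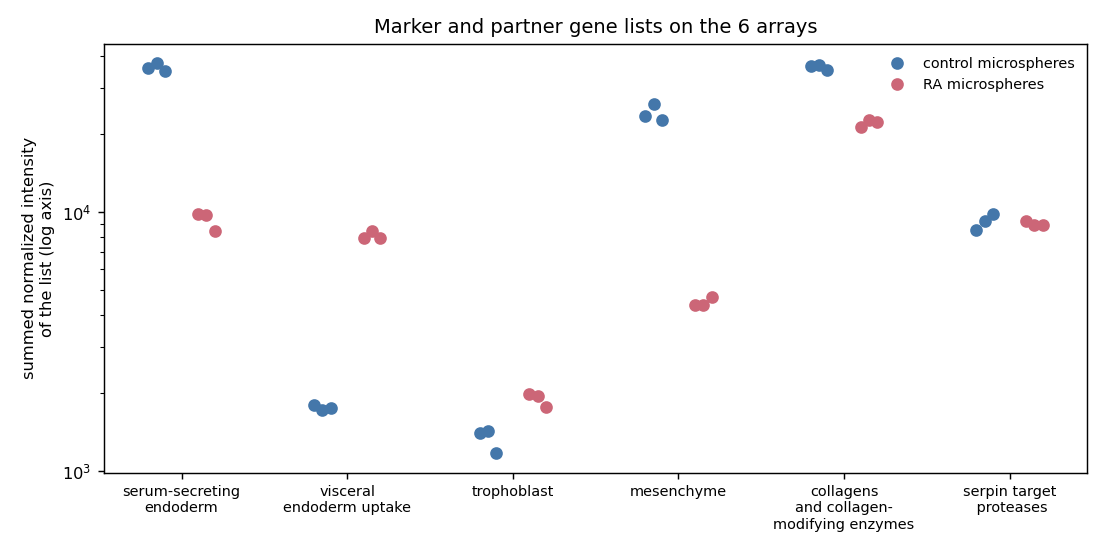
Summed normalized intensity (log axis) of the tested genes of 6 marker and partner lists, 1 point per array, controls blue and RA red. The serum-secreting endoderm list lies at 35026 to 37371 in controls and 8401 to 9773 with RA, and the list of serpin target proteases overlaps between groups. Ctsl, at a mean log2 level of 12.24 in both groups, is the brightest gene of that protease list.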

How the data were processed

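The deposited intensity values are linear signals per probe set, made by the authors with the Affymetrix GCOS software at default settings, per the labels; its version is not given in the sources used here. Array medians differed, so no common scale was assumed. The 64 control probe sets were left out, log2(intensity + 16) was quantile normalized in limma 3.58.1 (R 4.3.3), and the probe set with the highest mean among those kept, carrying 1 symbol, stood for its gene. Symbols came from the array's annotation, and all 40 serpin genes with their own probe set matched GRCm38.p6 RefSeq by gene identifier. RefSeq was used for gene order, chromosomes and promoters, since the array names no build.

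Groups (3 arrays each) came from sample titles and were compared with lmFit and eBayes with a trend, two-sided, without covariates, once over genes and once over probe sets. No arrays were identical. In simulated data 200 of 13608 genes were changed. There the gene comparison recovered 55% of genes changed by 1 and 91% of those changed by 2 (log2). Of its calls 4.58% were unchanged genes. The real arrays gave 1949 genes higher and 2127 lower, so these rates belong to the simulated setting only. Alternatives covered scaling, pseudocount, filter, probe set choice, variance trend, replicate block and left-out arrays. Alignments used Biopython 1.88.

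Members and lists were chosen with earlier results of these data known. Named in full were serpin genes past the threshold at 2-fold or more, else the clade's member with the smallest p, and from each partner list up to 4 genes by p, at most 3 of them in 1 direction where genes passed in both, and from each marker list up to 2.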

Additional observations from a re-analysis of the deposited data

How the results depend on the processing

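Across 16 alternatives the 9 serpin genes changed by at least 2-fold kept their direction and their call wherever they were tested. Their sizes moved, mainly with the pseudocount: fold changes ran from -5.68 to -3.04 for Serpina1b, -5.30 to -2.77 for Serpina6, -1.99 to -1.03 for Serpina1c, 1.98 to 3.39 for Serpinb9g and 0.88 to 2.05 for Serpinb6c. The number of serpin genes that rose was 2 in every alternative except the filter at the 60th percentile, where it was 1 because Serpinb6c, like Serpina1c, was no longer tested. The number that fell lay between 7 (no scaling) and 10, against 9, and between 8 and 9 when any single array was left out. With single arrays left out, 11 to 12 serpin probe sets fell and 3 rose. Serpinc1 lost its call in 7 alternatives and Serpinh1 without scaling; Serping1 gained one in 5 (-0.69 to -0.58), among them trimmed mean scaling (-0.65). Without scaling, 72.9% of all calls were higher, against 47.8% with quantile normalization. Same-numbered arrays did not deviate together (correlations -0.09, -0.01 and -0.03), so the number is not taken as a pairing. With a replicate block 2 serpin genes rose and 8 fell, Serpinc1 being lost (-0.64), and 12 probe sets fell. Without RA array 1 and control array 3 together, 2 rose and 9 fell. The arrays give no detection calls, so levels near the floor are not resolved.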
